A study of Mus with 9 samples.

Results

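The lysosome is the acidic organelle in which cells break down proteins, sugars, sulfated polysaccharides and lipids. The genes described here are 37 mouse genes for lysosomal hydrolases, the proteins of the lysosomal membrane and Tfeb, a transcription factor of lysosomal genes. They were taken by gene name from a count table of 54532 genes, and all 37 were found there. All 37 were also among the 15660 genes that passed the filter on low counts and were tested. The data are RNA-seq of bone marrow from mice that carried transplanted blood cells with the AML1-ETO fusion, a leukaemia-associated fusion of transcription factors. The question set by the design is what cyclin D2 (CCND2), a cell cycle regulator, adds to that fusion.

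Every group started from fetal liver cells of AML1-ETO conditional knock-in embryos at day 12.5, whose fusion carries an mCherry tag. The Vec cells received the empty retrovirus MSCV-IRES-EGFP, the CCND2wt cells the same virus with wild-type CCND2, and the CCND2mut cells the virus with CCND2 carrying Thr280Ala. Cells positive for mCherry and GFP went with supportive cells into lethally irradiated C57BL/6 mice, whose age is not given. The libraries are labelled bone marrow cells, with no sort named, so supportive and host cells may be among them. There were 3 libraries per group: Vec 1, 2 and 4, CCND2wt 2, 3 and 4, and CCND2mut 1, 2 and 3. Nothing says that the libraries came from separate mice, so the p-values measure the spread between these libraries, which may be technical.

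Library totals ran from 15043755 to 17593634 counts. Levels are given in CPM, counts normalised to library size, after TMM scaling, and differences as log2 fold changes from edgeR's quasi-likelihood test. A gene is called when its p, adjusted by Benjamini-Hochberg over all 15660 genes, is under 0.05. The Ccnd2 gene itself had 76, 78.9 and 86 CPM in Vec, 7.29, 9.28 and 11.1 in the libraries labelled CCND2wt and 12.6, 58.1 and 51 in those labelled CCND2mut. Every library labelled CCND2wt or CCND2mut was thus below every Vec library, although both labels name added CCND2. The gene was called lower than in Vec in CCND2wt (log2 fold change -3.12, SE 0.502, adjusted p = 0.00546). In CCND2mut it was not called (log2 fold change -0.99, SE 0.463, adjusted p = 0.106). The sources used here do not say whether transcripts of the virus are counted under this gene. Every group name below is the label's. The CCND2wt libraries resembled each other more than those of the other groups did, with a chi-square per gene of 7 to 17.7 between pairs against 53.3 to 148. They differed by more than counting noise, which repeat libraries of 1 RNA may do as well, so this does not show them to be separate samples. They were counted as 3, as labelled. The 5 pan-leukocyte markers (Ptprc, Spi1, Coro1a, Laptm5 and Cd53) were above 1 CPM in every library, but not at 1 level. They summed to 2204 to 2494 CPM in Vec, 1337 to 1384 in CCND2wt and 2441 to 3897 in CCND2mut. In CCND2wt against Vec 3 of the 5 (60%) were called lower, beside 9.05% of all genes. In CCND2mut against CCND2wt 4 of the 5 (80%) were called higher, beside 23.2% of all genes.

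Soluble hydrolases are made in the endoplasmic reticulum, tagged with mannose 6-phosphate and carried to the lysosome by receptors that recognise the tag. A proton pump, the V-ATPase, acidifies the lumen, and heavily glycosylated membrane proteins such as LAMP1 and LAMP2 line it. Transcription factors of the MiT/TFE family, among them TFEB, switch on many of these genes when the kinase complex mTORC1 releases them. In myeloid cells the granules of neutrophils and mast cells are related to lysosomes and hold several of the same proteins, and macrophages are rich in lysosomes.

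In the libraries labelled CCND2wt 8 of the 37 lysosomal genes were called against Vec, a share near that of all genes. Lamp1, a main protein of the lysosomal membrane, and Hexa, an enzyme of ganglioside breakdown, rose. The proteases Ctss and Ctsh, the sulfatase Sgsh, the sialidase Neu1 and the membrane proteins Cd68 and Cln3 fell. That makes 2 of 37 members higher, where 9.71% of all tested genes were called higher, and 6 of 37 lower, where 9.05% of all genes were called lower. As shares these are 5.41% and 16.2% of the members, and 18.8% of all genes were called in either direction. The groups did not overlap for 14 members higher and 9 lower in CCND2wt, where 24.7% and 23.6% of all genes (48.3% together) were so placed. The median log2 fold change was 0.11 over the members and -0.04 over all genes. Only Ctss and Sgsh kept the call when any 1 library was left out, and both lost it with the 3 CCND2wt libraries summed to 1 sample (adjusted p = 0.288 and 0.179). The other 6 lost it in at least 1 such fit, each of them when a CCND2wt library was left out.

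In the libraries labelled CCND2mut more members were higher than in Vec. Among the called members the largest of these differences were in Arsb, Glb1, Ctsz, Hexa, Gusb and Neu1, which encode enzymes for sulfated sugars, galactosides, peptides, gangliosides, glucuronides and sialic acids. Lamp1, Lamp2, Cd63 and Scarb2 of the membrane rose with them, while Sgsh, Ids, Lipa, Npc1 and Mcoln1 fell. In all, 15 of 37 members rose (40.5%), where 24.9% of all genes were called higher, and 5 fell (13.5%), where 26.9% of all genes were called lower and 51.8% either way. Without overlap between the groups, 16 members were higher and 5 lower, beside 27.5% and 29.2% of all genes (56.7% together). The median log2 fold change was 0.34 over the members and -0.03 over all genes. Of the 20 calls, 13 held when any 1 library was left out. The calls of Ctsd, Gla, Glb1, Grn, Ids, Mcoln1 and Scarb2 did not.

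Set against the CCND2wt libraries, those labelled CCND2mut had 17 members higher (45.9%) and 5 lower (13.5%), where 23.2% and 23.8% of all genes were called, 47% together. The groups did not overlap for 19 members higher and 7 lower, beside 30.9% and 32.2% of all genes (63.1% together). Ctsh, Arsb, Ctsl, Ctsz, Ctss, Neu1, Glb1 and Sgsh had the largest rises, and Ids, Gaa, Acp2, Npc1 and Mcoln1 fell. The median was 0.47 over the members and 0.02 over all genes. Of these 22 calls, 9 held when any 1 library was left out: Arsb, Ctsh, Ctsl, Ctsz, Gla, Gusb, Man2b1, Neu1 and Ppt1. With the 3 CCND2wt libraries summed to 1 sample, 5 members were called higher. Every pair of these comparisons shares a group of libraries, so they are not independent of each other. Of the 37 members, 10 were called in no comparison, 8 in 1, 15 in 2 and 4 in all 3. The same tally was not made for all genes, so these numbers have no background beside them. In bulk RNA, fewer cells of a type and less RNA per cell cannot be told apart, here or in the results below.

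**Figure D1:**
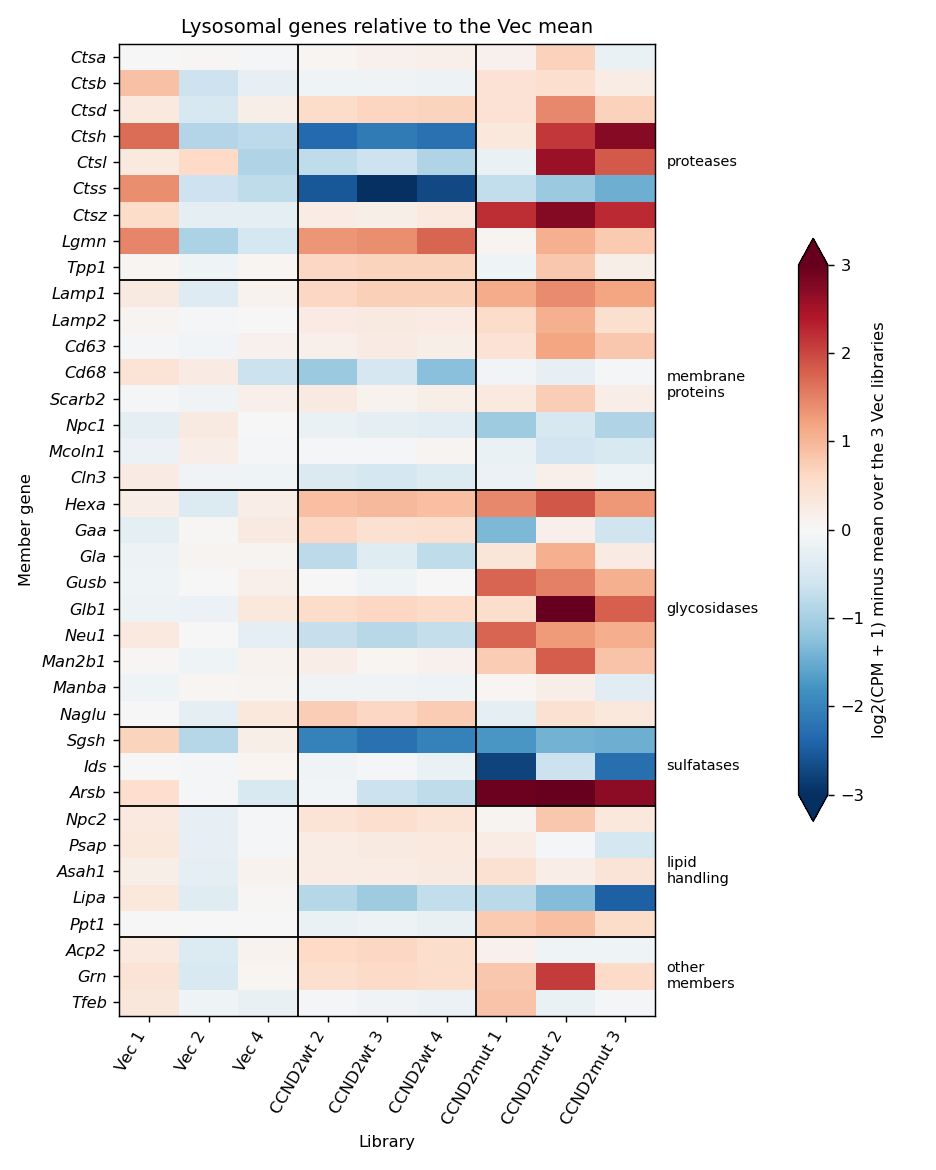
Level of each of the 37 member genes (rows, grouped by role) in each of the 9 libraries (columns), as log2(CPM + 1) minus the mean of the 3 Vec libraries, with the colour scale ending at -3 and 3. Ctsz, Arsb, Gusb and Neu1 are raised in every CCND2mut library, while Ctsh, Ctss and Lgmn differ within the Vec group, where Vec 1 is highest.

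**Figure D2:**
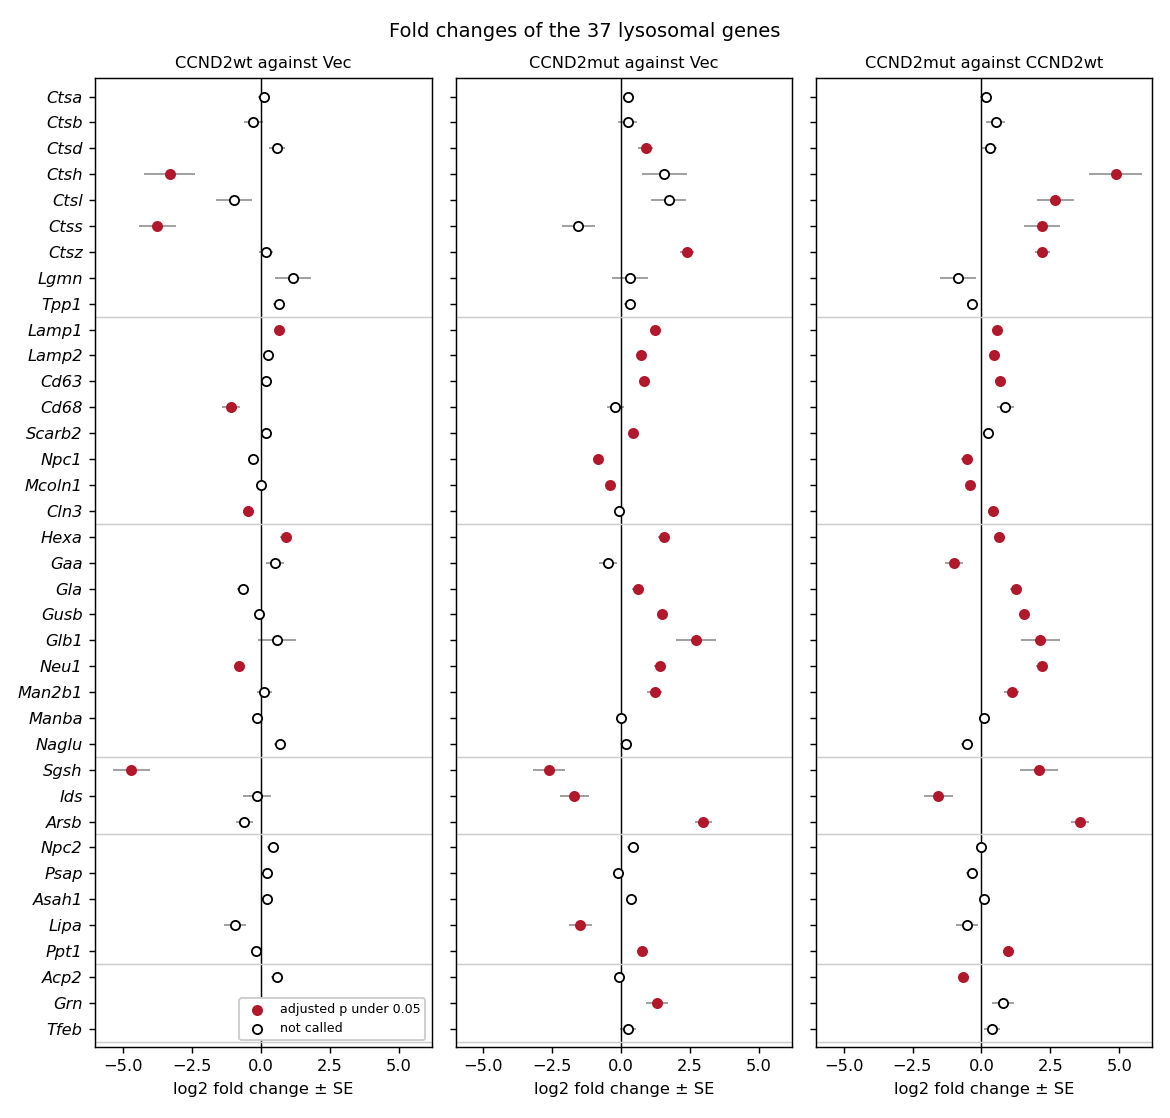
Log2 fold change with its standard error for each member in the 3 comparisons, filled where the adjusted p was under 0.05. In the CCND2wt against Vec panel 8 points are filled, in the CCND2mut against Vec panel 20 and in the CCND2mut against CCND2wt panel 22.

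Levels of cell type markers differed between the libraries as well, and their part in the lysosomal results was not tested. The summed level of 15 markers of maturing neutrophils was 15938, 1024 and 1118 CPM in Vec, 404 to 518 in CCND2wt and 21802, 6445 and 6278 in CCND2mut. The 10 promyelocyte markers summed to 2957 to 3461, 3897 to 4258 and 7776 to 13709 CPM in the same order. For the 11 monocyte markers the sums were 435 to 549.6, 128 to 161 and 1677 to 4552 CPM. The CCND2mut sum was largely Ly6c2 (929, 1729 and 4199 CPM), followed by Cd14 (444, 259.8 and 139.7) and F13a1 (243, 380.1 and 165). In Vec, Cd14 had 26.7, 11.4 and 8.26 CPM and F13a1 38.4, 3.8 and 3.97. Of the 11 markers 7 were lower in CCND2mut than in Vec, with 4 called higher and 3 lower. Klf4 and Irf8 went from means of 311 and 31.4 CPM in Vec to 19.8 and 3.27. The 17 macrophage markers summed to 511, 51.3 and 123 CPM in Vec, to 48.8 to 78.3 in CCND2wt and to 242 to 293 in CCND2mut, with Marco at 0 in every CCND2wt and CCND2mut library. Vcam1 made up 69, 78.5 and 179 CPM of the CCND2mut sums, Csf1r 84.6, 12.7 and 10.1, and Adgre1 25.9, 60.9 and 34.2. In Vec, Vcam1 had 73.3, 3.32 and 15.8 CPM, Csf1r 39.1, 3.73 and 5.51, and Adgre1 17.7, 1.22 and 2.82. Of the 14 tested, 11 were lower in CCND2mut than in Vec (median -1.08), with 1 called higher and 2 lower. The 12 markers of mast cells and basophils summed to 8068 to 11059 CPM in Vec and 18541 to 19198 in CCND2wt, and to 1898, 16794 and 4442 in CCND2mut. Much of that sum was Cpa3, at 979, 7513 and 1815 CPM in CCND2mut. Of 11 tested, 4 were called higher in CCND2mut than in Vec and 7 were not called (median 0.59), and Mcpt4 had 31.6, 258 and 34.2 CPM against 3.25 to 16.5 in Vec. The 11 stem and progenitor markers summed to 2444 to 3009 CPM in Vec, 2842 to 2998 in CCND2wt and 226 to 646 in CCND2mut. Vec 1 stood apart within its group, with 1.51% of counts in haemoglobin genes against 0.0126% and 0.356% in the other Vec libraries. It was also highest in Vec for the summed markers of B cells (1280 CPM against 97.2 and 156), erythroid cells (18655 against 1050.3 and 4686), eosinophils (288 against 6.98 and 25.9) and plasma cells (552 against 143 and 145). All 10 tested B cell markers and 10 of 14 erythroid markers (71.4%) were called lower in CCND2mut against Vec. In that comparison 24.9% of all genes were called higher and 26.9% lower. The calls given above are 36.4% higher and 27.3% lower for monocyte markers and 7.14% and 14.3% for macrophage markers. For mast cell and basophil markers 36.4% were called higher. Of the 15 neutrophil markers 3 (20%) were called higher and 0 lower, with 10 log2 fold changes positive and 5 negative. For promyelocyte markers 70% were called higher, and for stem and progenitor markers 81.8% were called lower.

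Of the 9 proteases, 2 fell in CCND2wt against Vec, 2 rose in CCND2mut against Vec and 4 rose in CCND2mut against CCND2wt, with no other calls. The shares of all genes called in those directions were 9.05%, 24.9% and 23.2%. Ctsz encodes cathepsin Z, a cysteine carboxypeptidase. It stood at 63.1, 35.2 and 35.3 CPM in Vec, 50.1, 48.9 and 53 in CCND2wt and 202, 297 and 205 in CCND2mut. Every CCND2mut library was above every other library, and the Vec and CCND2wt ranges overlapped. Ctsz rose in CCND2mut by 2.39 on the log2 scale against Vec (SE 0.26, adjusted p = 0.00018) and by 2.21 against CCND2wt (SE 0.258, adjusted p = 0.000256). The end of Ctsz overlaps that of Nelfcd on the other strand by 10 bases. Ctsd, the main aspartic protease of the lysosome, stood at 349.6, 204 and 318 CPM in Vec, 414, 442 and 453 in CCND2wt and 382, 773 and 459 in CCND2mut. It rose in CCND2mut against Vec by 0.89 (SE 0.282, adjusted p = 0.0277), a call lost without Vec 2 (adjusted p = 0.0925), Vec 4 (0.0553) or CCND2mut 2 (0.0874).

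Ctsh encodes cathepsin H, an aminopeptidase that in lung trims a surfactant protein. Its levels were 40.3, 6.03 and 6.53 CPM in Vec, 1.59, 1.98 and 1.76 in CCND2wt and 15.1, 55.4 and 85.6 in CCND2mut. CCND2wt lay below both other groups without overlap, and the CCND2mut range overlapped Vec through Vec 1. Ctsh was 4.87 higher on the log2 scale in CCND2mut than in CCND2wt (SE 0.965, adjusted p = 0.00373). In CCND2wt against Vec it fell by 3.31 (SE 0.914, adjusted p = 0.0393). Without Vec 1 that difference was -1.79 (adjusted p = 0.0922), and without 1 of the CCND2wt libraries its adjusted p was 0.117 to 0.133. Ctss encodes cathepsin S, which in antigen-presenting cells degrades the invariant chain of MHC class II. Its levels were 45.9, 10.6 and 9.54 CPM in Vec, 2.06, 1.08 and 1.76 in CCND2wt and 9.7, 7.33 and 5.5 in CCND2mut. It fell in CCND2wt against Vec by 3.75 (SE 0.676, adjusted p = 0.00856), and by 2.59 without Vec 1 (adjusted p = 0.00294). Vec 1, the highest library of its group for both genes, was also the highest for the neutrophil, macrophage, B cell, erythroid, eosinophil and plasma cell markers.

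Ctsl, the gene of the endopeptidase cathepsin L, was at 20.3, 25.5 and 8.32 CPM in Vec, 9.25, 10.4 and 8.24 in CCND2wt and 14.1, 103 and 61.7 in CCND2mut. All CCND2mut libraries were above all CCND2wt libraries, with CCND2mut 1 closest to them. The rise against CCND2wt was 2.68 (SE 0.674, adjusted p = 0.0115), and 2 without CCND2mut 2 (adjusted p = 0.0385). Ctss was also higher in CCND2mut than in CCND2wt, by 2.2 (SE 0.646, adjusted p = 0.0223), a call lost without any 1 of the CCND2wt libraries or without CCND2mut 1 (adjusted p = 0.0526 to 0.0807). The other 4 proteases, Ctsa, Ctsb, Lgmn and Tpp1, were called in no comparison, with log2 fold changes between -0.85 and 1.16. Lgmn, the asparaginyl endopeptidase legumain, varied most among the members within Vec, at 21.4, 3.19 and 4.61 CPM. Without Vec 1 its differences from Vec passed the test in both other groups.

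Among the 8 membrane proteins there was 1 rise and 2 falls in CCND2wt against Vec, and 4 rises and 2 falls in each comparison of CCND2mut. For all genes the shares called higher and lower were 9.71% and 9.05% in the first, 24.9% and 26.9% against Vec, and 23.2% and 23.8% against CCND2wt. Lamp1 had 175, 111 and 155 CPM in Vec, 224, 239 and 239 in CCND2wt and 315, 385 and 329.7 in CCND2mut. The 3 groups did not overlap in any pair, with Vec lowest and CCND2mut highest. Lamp1 rose by 0.67 in CCND2wt against Vec (SE 0.17, adjusted p = 0.0285), by 1.22 in CCND2mut against Vec (SE 0.171, adjusted p = 0.000577) and by 0.55 in CCND2mut against CCND2wt (SE 0.169, adjusted p = 0.0254). The first of these was lost without Vec 4 or without any 1 of the CCND2wt libraries (adjusted p = 0.0613 to 0.0996). The last was lost without any 1 of the CCND2wt libraries or without CCND2mut 2 (adjusted p = 0.071 to 0.0976). Lamp2, whose protein also serves in chaperone-mediated autophagy, rose by 0.72 and 0.47 in CCND2mut against Vec and CCND2wt, from means of 133 ± 6.45 and 158 ± 2.01 CPM to 218 ± 50.1 (SD, n = 3 each). The Lamp2 call against CCND2wt was lost without any 1 of the CCND2wt libraries (adjusted p = 0.0879 to 0.0999) or without CCND2mut 2, where the difference was 0.23 (0.0815).

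Cd63 encodes a tetraspanin of late endosomes, lysosomes and exosomes, and is also a marker of mast cell granules. Its levels were 405, 391 and 449.9 CPM in Vec, 459, 488 and 470.2 in CCND2wt and 563, 945 and 727 in CCND2mut. Every CCND2mut library exceeded the others, and Cd63 rose by 0.84 against Vec (SE 0.178, adjusted p = 0.00441) and by 0.66 against CCND2wt (SE 0.177, adjusted p = 0.0149). The second call was lost without CCND2wt 2 (adjusted p = 0.0597) or CCND2wt 4 (0.0543). Npc1 encodes the membrane protein that, with soluble NPC2, moves cholesterol out of the lysosome. It went the other way, at 54.7, 81 and 66.8 CPM in Vec, 58.3, 54.2 and 52.8 in CCND2wt and 31.3, 47.1 and 35 in CCND2mut. Npc1 fell in CCND2mut by 0.84 against Vec (SE 0.187, adjusted p = 0.00576) and by 0.54 against CCND2wt (SE 0.186, adjusted p = 0.0402). Against CCND2wt its call was lost without CCND2mut 1, CCND2mut 3 or any 1 of the CCND2wt libraries (adjusted p = 0.0775 to 0.115).

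Cln3, a membrane protein whose loss causes juvenile neuronal ceroid lipofuscinosis, was at 61, 47.3 and 46.6 CPM in Vec and 37.5, 35.3 and 38.1 in CCND2wt. In CCND2mut it was at 45.5, 56.9 and 46.5 CPM, within the Vec range except for CCND2mut 1 and CCND2mut 3, which were just under it. Its fall in CCND2wt against Vec was 0.48 (SE 0.142, adjusted p = 0.0468). That call was lost without any 1 library of the 2 groups (adjusted p = 0.0609 to 0.15). Cln3 rose in CCND2mut against CCND2wt by 0.43 (SE 0.142, adjusted p = 0.0363), without overlap. The rise was lost without CCND2mut 2, CCND2mut 3 or any 1 of the CCND2wt libraries (adjusted p = 0.051 to 0.15). Cln3 overlaps Apobr on the other strand by 876 bases, and Apobr had log2 fold changes of -1.37, 0.95 and 2.32 in the 3 comparisons. Cd68, a sialomucin of macrophage lysosomes, fell in CCND2wt against Vec by 1.08 (adjusted p = 0.0498) although the groups overlapped, at 22.2, 19.6 and 10.1 against 7.08, 11.2 and 6.27 CPM. That call was lost without Vec 1, Vec 2 or any 1 of the CCND2wt libraries (adjusted p = 0.0542 to 0.175). Mcoln1, the lysosomal calcium channel, fell in CCND2mut by 0.41 against Vec and by 0.4 against CCND2wt, and Scarb2, the carrier of glucocerebrosidase to the lysosome, rose by 0.43 against Vec. None of these 3 calls held when any 1 library was left out (adjusted p = 0.05 to 0.13 in the fits that lost them).

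Of the 9 glycosidases, 1 rose and 1 fell in CCND2wt against Vec, while 6 rose in CCND2mut against Vec and the other 3 were not called. Against CCND2wt, 6 rose and 1 fell in CCND2mut. The 1 call each way is 11.1% of this group, near the 9.71% and 9.05% of all genes, and 6 of 9 is 66.7%, where 24.9% and 23.2% of all genes were called higher. Hexa, whose product degrades GM2 ganglioside, had 87.4, 57.2 and 87.7 CPM in Vec, 143, 150.3 and 142 in CCND2wt and 208, 281 and 189.8 in CCND2mut, with no overlap between any 2 groups. Hexa rose by 0.91 in CCND2wt against Vec (SE 0.199, adjusted p = 0.0168), by 1.55 in CCND2mut against Vec (SE 0.202, adjusted p = 0.000411) and by 0.64 in CCND2mut against CCND2wt (SE 0.198, adjusted p = 0.0264). The first and the last were lost without any 1 of the CCND2wt libraries (adjusted p = 0.0606 to 0.0632 and 0.0688 to 0.0847), and the last also without CCND2mut 2 (0.105).

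Gusb encodes beta-glucuronidase. It stood at 80.3, 87.1 and 98 CPM in Vec, 86.8, 81 and 86.9 in CCND2wt and 299.8, 252 and 187 in CCND2mut. The first 2 groups overlapped and all CCND2mut libraries were above them. The rise in CCND2mut was 1.48 against Vec (SE 0.17, adjusted p = 0.00023) and 1.54 against CCND2wt (SE 0.171, adjusted p = 0.000204). Neu1 encodes the lysosomal sialidase, which works in a complex with the products of Ctsa and Glb1. Its levels were 51, 41.4 and 34.4 CPM in Vec, 25.6, 23 and 25.1 in CCND2wt and 142, 103 and 89.9 in CCND2mut. No groups overlapped, with CCND2wt lowest. Neu1 rose in CCND2mut by 1.4 against Vec (SE 0.198, adjusted p = 0.000615) and by 2.18 against CCND2wt (SE 0.203, adjusted p = 9.27e-05). It fell in CCND2wt against Vec by 0.78 (SE 0.197, adjusted p = 0.0276), a call lost without Vec 1, Vec 2 or any 1 of the CCND2wt libraries (adjusted p = 0.0573 to 0.103). Ctsa, the third gene of that complex, was called in no comparison, at 116 to 214 CPM over all libraries.

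Glb1, the gene of lysosomal beta-galactosidase, had 63.4, 62.2 and 87.5 CPM in Vec, 104, 109 and 105 in CCND2wt and 102, 1044 and 244 in CCND2mut. The CCND2mut group spanned a 10.2-fold range, the widest of any member, and only CCND2mut 2 and 3 lay above CCND2wt. Glb1 rose by 2.71 in CCND2mut against Vec (SE 0.727, adjusted p = 0.0142), and by 1.28 without CCND2mut 2 (adjusted p = 0.0166). That call was lost without Vec 2 (adjusted p = 0.0523). Against CCND2wt the rise of 2.13 (SE 0.71, adjusted p = 0.0374) became 0.67 (adjusted p = 0.145) without CCND2mut 2, and its adjusted p was 0.0994 to 0.106 without 1 of the CCND2wt libraries. Tmppe, which lies within Glb1 on the same strand, had 39.9 CPM in CCND2mut 2 and 7.62 to 15.7 in the other libraries.

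Gla, alpha-galactosidase A, was lowest in CCND2wt at 33.8, 45.4 and 34.2 CPM, against 52.3, 62 and 62.2 in Vec and 76, 124 and 70.2 in CCND2mut. It rose in CCND2mut against CCND2wt by 1.25 (SE 0.227, adjusted p = 0.00226) and against Vec by 0.61 (SE 0.224, adjusted p = 0.0474). The latter was lost without CCND2mut 2 or any 1 of the Vec libraries (adjusted p = 0.0875 to 0.147). Man2b1, alpha-mannosidase, rose in CCND2mut by 1.22 and 1.09 against Vec and CCND2wt, from means of 329.6 ± 28 and 361 ± 18.5 CPM to 770.4 ± 341 (SD, n = 3 each). CCND2mut 2 was highest at 1164 CPM, and without it the Man2b1 differences were 0.79 and 0.63, both still called. Gaa, the acid alpha-glucosidase that degrades glycogen, fell in CCND2mut against CCND2wt by 1 (SE 0.331, adjusted p = 0.0359), from 189, 171 and 173 CPM to 48.1, 137 and 81.5. This call was lost without CCND2mut 3 or any 1 of the CCND2wt libraries (adjusted p = 0.075 to 0.101). Manba and Naglu were called in no comparison, with log2 fold changes between -0.52 and 0.71.

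**Figure D3:**
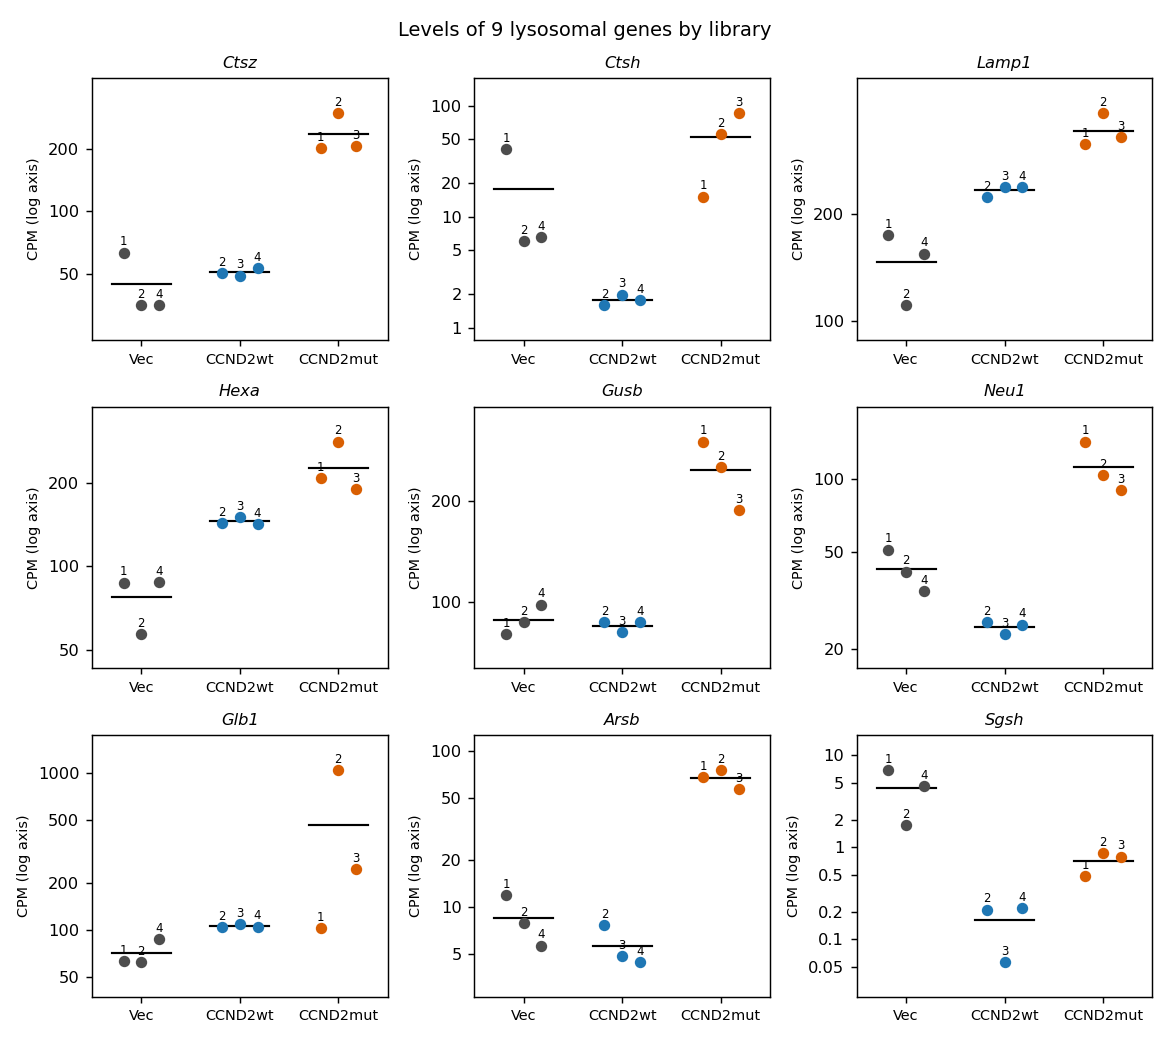
CPM in each library (points, numbered by replicate, log axis) and group mean (line) for 9 members. Every CCND2mut point lies above both other groups for Ctsz, Lamp1, Hexa, Gusb, Neu1 and Arsb, the Glb1 mean of CCND2mut rests on CCND2mut 2 at 1044 CPM, and Sgsh is highest in Vec.

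The 3 sulfatases each moved in their own way. Arsb, arylsulfatase B, which acts on dermatan and chondroitin sulfate, had 11.9, 7.86 and 5.63 CPM in Vec, 7.61, 4.81 and 4.4 in CCND2wt and 68.5, 75.9 and 57.2 in CCND2mut. The lowest CCND2mut library was above the highest of all others. Arsb rose in CCND2mut by 2.98 against Vec (SE 0.316, adjusted p = 0.000159) and by 3.58 against CCND2wt (SE 0.326, adjusted p = 8.11e-05). Ids, iduronate 2-sulfatase on the X chromosome, was at 27.7, 26.6 and 29 CPM in Vec, 25.7, 26.4 and 24 in CCND2wt and 3.21, 17.4 and 5.04 in CCND2mut. Every CCND2mut library was below the others. Ids fell in CCND2mut by 1.7 against Vec (SE 0.53, adjusted p = 0.0262) and by 1.57 against CCND2wt (SE 0.528, adjusted p = 0.0382). Without CCND2mut 2 these differences were -2.76 (adjusted p = 0.000128) and -2.65 (0.00014). The call against Vec was lost without Vec 2, Vec 4 or CCND2mut 3 (adjusted p = 0.0562 to 0.082), and that against CCND2wt without CCND2mut 1, CCND2mut 3 or any 1 of the CCND2wt libraries (0.0574 to 0.113).

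Sgsh encodes sulfamidase, which removes N-linked sulfate from heparan sulfate, and was the member with the fewest counts. Its counts were 115, 26 and 72 in Vec, 4, 1 and 4 in CCND2wt and 8, 13 and 12 in CCND2mut. In CPM these are 6.92, 1.76 and 4.61, then 0.211, 0.0566 and 0.22, then 0.485, 0.867 and 0.795. None of the 3 groups overlapped another, with CCND2wt lowest. Sgsh fell by 4.7 in CCND2wt against Vec (SE 0.673, adjusted p = 0.00317) and by 2.62 in CCND2mut against Vec (SE 0.577, adjusted p = 0.00523), and rose by 2.08 in CCND2mut against CCND2wt (SE 0.696, adjusted p = 0.0337). The last call was lost without CCND2mut 2, CCND2mut 3 or any 1 of the CCND2wt libraries (adjusted p = 0.0634 to 0.101). At 1 to 4 counts per CCND2wt library, the size of these differences is known only roughly. Slc26a11, which starts 21 bases from Sgsh, had 6.02, 0.542 and 1.09 CPM in Vec, 0.106, 0.283 and 0.275 in CCND2wt and 2.24, 0.733 and 0.795 in CCND2mut.

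Of the 5 members that handle lipids or lipid-modified proteins, none was called in CCND2wt against Vec, where 18.8% of all genes were called. In CCND2mut 1 rose and 1 fell against Vec (20% each), beside 24.9% and 26.9% of all genes. Against CCND2wt 1 rose (20%), beside 23.2% of all genes. These shares are near those of all genes, except that no fall was called against CCND2wt. Ppt1, the thioesterase that removes palmitate from proteins, was steady in Vec at 77, 77.5 and 76.5 CPM and stood at 67.1, 69.1 and 66 in CCND2wt. It was at 134, 145 and 114 CPM in CCND2mut, above every other library. Ppt1 rose by 0.77 against Vec (SE 0.105, adjusted p = 0.000522) and by 0.96 against CCND2wt (SE 0.105, adjusted p = 0.000193). Ppt1 overlaps Cap1 on the other strand by 129 bases, and Cap1, with more counts, had log2 fold changes of 0.72 and 1.12 in the same comparisons. Lipa, lysosomal acid lipase, which releases cholesterol and fatty acids from lipoprotein esters, had 36.2, 22.3 and 29.4 CPM in Vec, 15.4, 13.3 and 16.8 in CCND2wt and 16, 11 and 4.44 in CCND2mut. Both CCND2 groups lay below Vec and overlapped each other. Lipa fell in CCND2mut against Vec by 1.48 (SE 0.406, adjusted p = 0.0151), while the difference of CCND2wt from Vec was -0.95 (adjusted p = 0.127). Psap, the precursor of the saposins, Npc2 and Asah1, acid ceramidase, were called in no comparison, with log2 fold changes from -0.34 to 0.43.

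Grn, Acp2 and Tfeb complete the list. Grn encodes progranulin, which is cleaved to granulins in the lysosome. It was at 121, 66.8 and 94.6 CPM in Vec, 131, 137 and 133 in CCND2wt and 161, 396 and 137 in CCND2mut, with CCND2mut 2 far above the other libraries. Grn rose in CCND2mut against Vec by 1.3 (SE 0.395, adjusted p = 0.0239), and by 0.65 without CCND2mut 2 (adjusted p = 0.0425). The call was lost without Vec 2 (adjusted p = 0.0849) or Vec 4 (0.0641). Acp2, lysosomal acid phosphatase, was highest in CCND2wt at 22.1, 22.2 and 20.8 CPM, against 15.6, 12.8 and 12.9 in CCND2mut and 17.6, 10.4 and 15.4 in Vec. It fell in CCND2mut against CCND2wt by 0.66 (SE 0.205, adjusted p = 0.0281), a call lost without CCND2mut 2, CCND2mut 3 or any 1 of the CCND2wt libraries (adjusted p = 0.0592 to 0.0804). Acp2 shares 2527 bases with Ddb2 on the other strand, whose log2 fold change there was -0.97. Tfeb stood at 31.3, 22.3 and 20.7 CPM in Vec, 23.6, 22.7 and 21.6 in CCND2wt and 44.9, 21 and 23.2 in CCND2mut. The groups overlapped and Tfeb was called in no comparison, with differences of -0.13, 0.26 and 0.39 (adjusted p = 0.79, 0.479 and 0.302).

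Per kilobase of gene length, the members differed widely in level. Psap led in Vec with 244 ± 49.5 CPM per kb and in CCND2wt with 289 ± 7.11 (SD, n = 3 each). In Vec it was followed by Ctsd (124 ± 32.6) and Cd63 (113 ± 8.32), which did not differ beyond their spread, then Lamp1 (54.9 ± 12.4) and Man2b1 (41.1 ± 3.49). In CCND2wt the order of the top 6 was Psap, Ctsd, Cd63, Lamp1, Hexa and Man2b1, each level apart from the next. In CCND2mut Ctsd (229 ± 88.2) and Psap (228 ± 58.1) did not differ beyond their spread, and Cd63 (202 ± 52.1), Ctsz (163 ± 37.6), Glb1 (154 ± 169) and Lamp1 (128 ± 13.9) followed without a clear gap. Sgsh had the lowest mean in every group, at 1 ± 0.585 CPM per kb in Vec, where it was not apart from Arsb (1.4 ± 0.527), 0.0368 in CCND2wt and 0.162 in CCND2mut. The 5 members with the most CPM made up 49.5% of the members' summed level in Vec, 51.8% in CCND2wt and 49.2% in CCND2mut.

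Summed over the 37 members, the level was 4264, 3284 and 3808 CPM in Vec, 4378, 4447 and 4458 in CCND2wt and 5323, 8563 and 5276 in CCND2mut. The 3 groups did not overlap in this sum, and CCND2mut 2 was far above the rest. As a share of all counts the members took 0.309% to 0.425% in Vec, 0.465% to 0.487% in CCND2wt and 0.513% to 0.766% in CCND2mut. The libraries of a group differed most in Vec and CCND2mut. The median ratio of a member's highest to lowest library was 1.48 in Vec, 1.09 in CCND2wt and 1.68 in CCND2mut. Within Vec, Vec 1 was highest for 21 of 37 members and Vec 2 lowest for 22. Within CCND2mut, library 2 was highest for 26, and it had 16794 CPM of mast cell and basophil markers where the other CCND2mut libraries had 1898 and 4442. The CCND2wt libraries had 18541 to 19198 CPM of these markers, with member sums of 4378 to 4458. Whether marker and member levels go together was not tested.

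The members lie on 16 chromosomes. Only Gaa and Sgsh are within a megabase of each other, 58 kb apart on chromosome 11. Their log2 fold changes were 0.51 and -4.7 in CCND2wt against Vec, -0.49 and -2.62 in CCND2mut against Vec, and -1 and 2.08 in CCND2mut against CCND2wt. On mm10 the files place Ctsz at chromosome 2, 174427493 to 174439039, Arsb at chromosome 13, 93771630 to 93943016, and Gusb at chromosome 5, 129989011 to 130003049. Neu1 is at chromosome 17, 34931253 to 34935953, Glb1 at chromosome 9, 114401076 to 114474898, and Sgsh at chromosome 11, 119343425 to 119355536. In all, 18 members overlap another gene, and for 5 of them (Ctsz, Npc1, Cln3, Ppt1 and Acp2) the partner holds at least 10% as many counts. The strand setting of the counting is not given in the sources used here, so the values of these 5 are uncertain where the genes overlap.

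Of the 18 genes of the V-ATPase and its accessory proteins, 13 rose and 2 fell in CCND2mut against Vec, and the median log2 fold change was 0.61. Set against CCND2wt, 12 were called higher and 2 lower (median 0.65), and CCND2wt against Vec gave 1 call each way. Of all genes 24.9% and 26.9% were called higher and lower in CCND2mut against Vec, and 23.2% and 23.8% against CCND2wt. In CCND2wt against Vec the shares of all genes were 9.71% and 9.05%, beside 5.56% each way here. Whether this list differs from the members was not tested. Atp6ap2, an accessory protein also known as the prorenin receptor, had 65.1, 53.5 and 51.8 CPM in Vec, 61, 65.1 and 62.7 in CCND2wt and 141, 142 and 124 in CCND2mut. It rose by 1.26 against Vec (SE 0.117, adjusted p = 8.84e-05) and by 1.11 against CCND2wt (SE 0.116, adjusted p = 0.000154). The subunit gene Atp6v1e1 rose by 0.98 and 1.34, to 155, 177 and 176 CPM. Atp6v0a2, an isoform of the largest membrane subunit, fell from 89.8, 102 and 117 CPM in Vec and 77.6, 80.3 and 80.9 in CCND2wt to 32.7, 31.9 and 37. Its log2 fold changes were -1.6 against Vec (SE 0.121, adjusted p = 3.85e-05) and -1.23 against CCND2wt (SE 0.12, adjusted p = 0.00011).

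Genes that tag and sort lysosomal enzymes included 8 of 17 that rose and 2 that fell in CCND2mut against Vec, and 7 and 3 against CCND2wt. In CCND2wt against Vec 3 rose. As shares of the 17 called higher and lower these are 47.1% and 11.8%, then 41.2% and 17.6%, with 17.6% higher in CCND2wt. The shares of all genes so called were 24.9% and 26.9%, then 23.2% and 23.8%, and 9.71% and 9.05% in CCND2wt against Vec. M6pr, the cation-dependent mannose 6-phosphate receptor, had 179.8, 172 and 188 CPM in Vec, 156, 149 and 155 in CCND2wt and 356, 466 and 438 in CCND2mut. Its rises were 1.22 (SE 0.12, adjusted p = 0.00011) and 1.45 (SE 0.12, adjusted p = 5.24e-05). Sort1, encoding the sorting receptor sortilin, had 112, 93.3 and 87.4 CPM in Vec, 143, 148 and 148 in CCND2wt and 448, 330.5 and 313 in CCND2mut, with no overlap between groups. Sort1 was called higher in all 3 comparisons, by 0.58, 1.9 and 1.32, and its call in CCND2wt against Vec was lost without Vec 2, Vec 4 or any 1 of the CCND2wt libraries. Gga2, an adaptor for these receptors, rose in CCND2mut against Vec by 2.57 (SE 0.338, adjusted p = 0.000472), from 19.1, 8.14 and 13.7 to 111, 74.6 and 57.7 CPM.

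Calls among the 30 other lysosomal hydrolases went both ways. Against Vec, 3 rose and 4 fell in CCND2wt, and 8 rose and 10 fell in CCND2mut. Against CCND2wt, 7 rose and 9 fell in CCND2mut. As shares of the 30 these are 10% and 13.3%, 26.7% and 33.3%, and 23.3% and 30%. Of all genes 9.71% and 9.05%, 24.9% and 26.9%, and 23.2% and 23.8% were called higher and lower in those comparisons. Ctsf, cathepsin F, had 45.1, 29 and 37.7 CPM in Vec, 15.4, 16.1 and 16 in CCND2wt and 0.546, 0.2 and 0.199 in CCND2mut, and fell in CCND2mut against Vec by 6.83 (SE 0.372, adjusted p = 1.2e-05), or by 7.49 without CCND2mut 1. Ctso, cathepsin O, fell by 1.98 to 10, 10.9 and 10.2 CPM. Galns, a sulfatase for keratan and chondroitin sulfate, rose by 2.23 (SE 0.162, adjusted p = 3.33e-05), from 38.2, 26 and 26.7 CPM in Vec to 139, 147 and 141. Of the 20 other membrane proteins, 2 rose and 2 fell in CCND2wt against Vec. In CCND2mut 6 rose and 5 fell against Vec, and 7 rose and 5 fell against CCND2wt. These are 10% each way, 30% and 25%, and 35% and 25% of the 20, beside the same shares of all genes. Laptm4b stood at 9.08, 14 and 11.7 CPM in Vec, 35.5, 42.7 and 40.5 in CCND2wt and 0.364, 0.4 and 0.0663 in CCND2mut, and was called in all 3 comparisons.

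**Figure D4:**
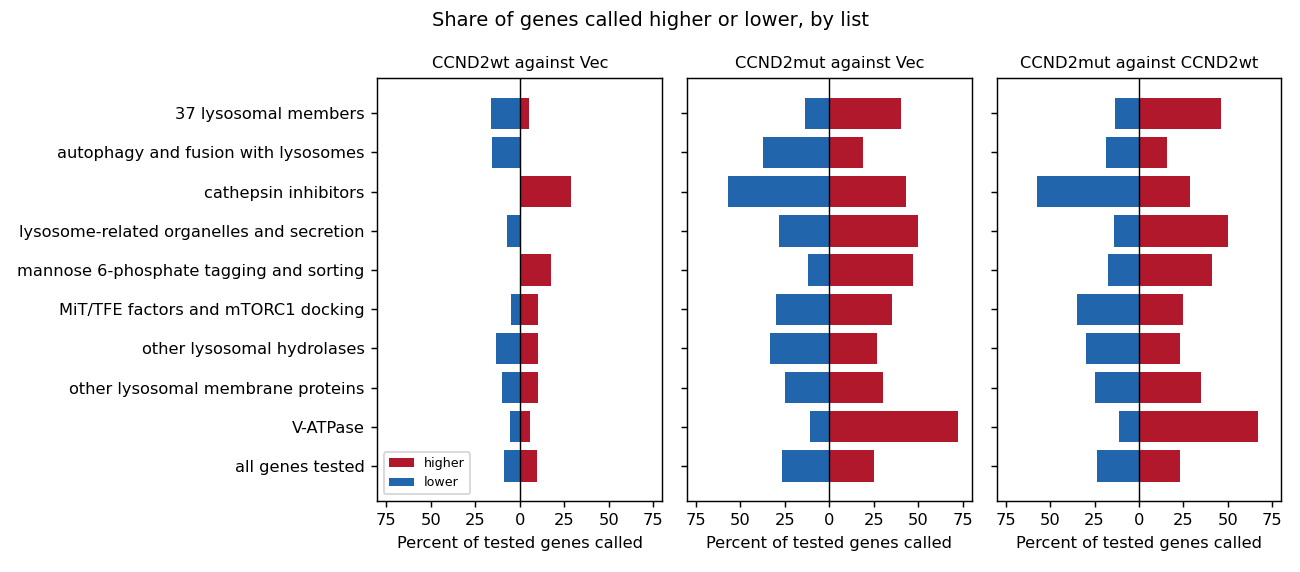
Percent of the tested genes of each list called higher (right) or lower (left) in each comparison, for the 37 members, 8 related lists and all genes tested. In CCND2mut against Vec 72.2% of the V-ATPase list and 40.5% of the members were called higher, beside 24.9% of all genes.

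The MiT/TFE factors and the proteins that dock mTORC1 on the lysosome were 20 genes besides Tfeb. In CCND2wt against Vec 2 rose (10%) and 1 fell (5%), where 9.71% and 9.05% of all genes were called higher and lower. In CCND2mut against Vec 7 rose (35%) and 6 fell (30%), beside 24.9% and 26.9% of all genes. In CCND2mut against CCND2wt 5 rose (25%) and 7 fell (35%), beside 23.2% and 23.8% of all genes. Mitf, known for its role in mast cells, pigment cells and osteoclasts, had 129, 167 and 178 CPM in Vec, 136, 161 and 126 in CCND2wt and 4.06, 20.5 and 5.3 in CCND2mut. It fell in CCND2mut by 3.99 against Vec (SE 0.581, adjusted p = 0.000778) and by 3.82 against CCND2wt (SE 0.577, adjusted p = 0.000985). Without CCND2mut 2 these Mitf differences were -5.08 and -4.95. Tfec, a family member known from macrophages, went the other way. Its levels were 2.71, 0.746 and 1.28 CPM in Vec, 0.317, 0.113 and 0.055 in CCND2wt and 71.9, 28.9 and 109 in CCND2mut. Tfec rose in CCND2mut by 5.45 against Vec (SE 0.667, adjusted p = 0.000347) and by 8.67 against CCND2wt (SE 0.837, adjusted p = 0.000118), the latter against libraries at or near the floor of 3 counts, so that its size is known only roughly. The Tfec difference from Vec was 6.08 without Vec 1, and that from CCND2wt was 9.57 without CCND2wt 2. Among the MiT/TFE genes, the library with the most Mitf in CCND2mut was also the one with the least Tfec, CCND2mut 2, which had the most mast cell and basophil markers of its group. Their part in these values was not tested.

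**Figure D5:**
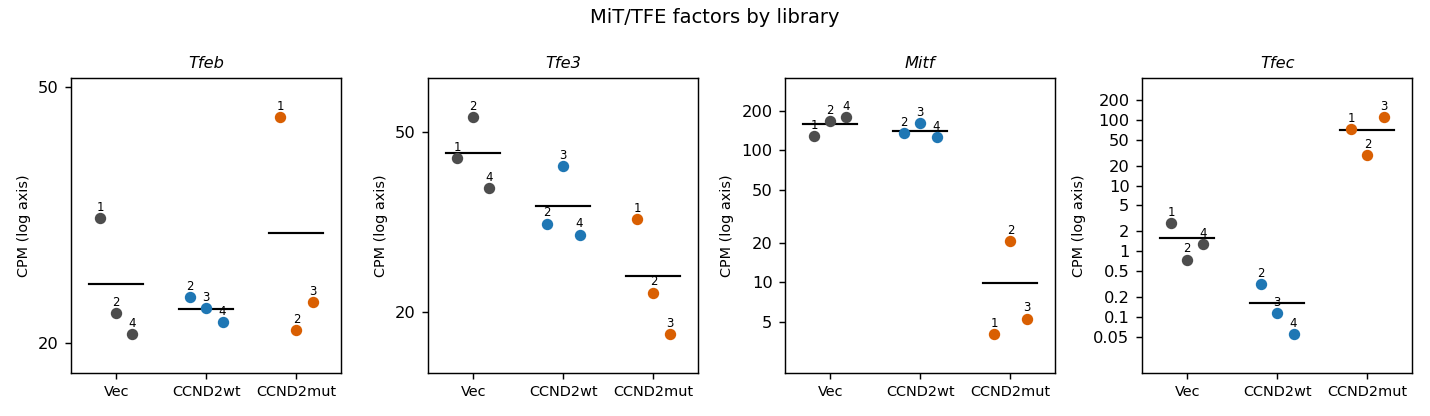
CPM of Tfeb, Tfe3, Mitf and Tfec in each library (points, numbered by replicate, log axes) with group means (lines). Mitf is at 126 to 178 CPM in Vec and CCND2wt and at 4.06 to 20.5 in CCND2mut, Tfec is at 28.9 to 109 in CCND2mut and at 2.71 or less elsewhere, and the Tfeb groups overlap.

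Flcn, the folliculin that controls the release of TFEB and TFE3 from mTORC1, fell in CCND2mut from 133, 166 and 124 CPM in Vec and 134, 117 and 141 in CCND2wt to 59.5, 54.6 and 41. The falls were 1.45 (SE 0.173, adjusted p = 0.000268) and 1.34 (SE 0.172, adjusted p = 0.000401). Lamtor4, a part of the Ragulator complex that holds mTORC1 on the lysosome, rose by 1.5 (SE 0.189, adjusted p = 0.000352) and 1.85 (SE 0.191, adjusted p = 0.000143), from 41.5, 24.2 and 27.4 CPM in Vec and 25.2, 24.1 and 23.8 in CCND2wt to 85.9, 85.3 and 93. Lamtor2 of the same complex rose by 1.29 and 0.92. Every Lamtor2 and Lamtor4 level in CCND2mut was above all those of the other groups.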

How the data were processed

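RNA-seq of bone marrow cells (TRIzol total RNA, NEBNext Ultra kit, per the labels' protocols) gave 9 libraries, 3 per group, grouped by title. The deposited values are raw counts per gene. Per the submitters' processing notes the authors used CASAVA 1.8, fastp, HISAT2 2.0.5, featureCounts 1.5.0-p3 and DESeq2 1.20.0 with mm10. The annotation release was not given in the sources used here, nor was the strand setting. No column of sample values was left out. Gene length, used only to compare levels between genes, is the authors' deposited column.

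Counts were fitted with edgeR 4.0.16 (limma 3.58.1, R 4.3.3): low genes removed by filterByExpr, TMM scaling, robust quasi-likelihood fit of all 9 libraries with group as the only term (6 residual degrees of freedom), and Benjamini-Hochberg adjustment over 15660 genes at 0.05. Scripts were tested on simulated counts, where 13.6% to 19.5% of genes changed 2-fold were called and 63.9% to 67% of those changed 4-fold. A gene that was not called is thus not shown to be unchanged. The members and all gene lists were chosen with earlier results of these data known, so no list was tested as a set. Members described in full are, per role and comparison, up to 3 called members with the largest change whose groups did not overlap, and of each related list up to 4 genes with the smallest adjusted p. A gene that this rule names in 1 related list is not reported here. Other genes named with values (Ccnd2, Cd68, other members and genes that overlap or lie beside a member) were chosen after their values were seen. Alternatives were RLE scaling, DESeq2 1.42.0, no filter or one of 5 CPM in 3 libraries, only the 2 groups compared, the replicate number as a term, each library left out, Vec 1 and CCND2mut 1 both left out, CCND2wt summed to 1 sample, and haemoglobin, immunoglobulin and mitochondrial genes removed. Related genes named here were added to these alternatives after the data were seen. At this depth the floor of 3 counts is 0.159 to 0.203 CPM, for counting error only.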

Additional observations from a re-analysis of the deposited data

How the results depend on the processing

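No called fold change of a member changed sign under any alternative. In CCND2mut against Vec 12 of 20 member calls passed under all of them (Ctsz, Lamp1, Lamp2, Cd63, Npc1, Hexa, Gusb, Neu1, Man2b1, Arsb, Lipa and Ppt1), in CCND2mut against CCND2wt 5 of 22 (Ctsz, Gusb, Neu1, Arsb and Ppt1) and in CCND2wt against Vec 0 of 8. For CCND2wt against Vec, members called higher (2) numbered 5 with DESeq2, 6 with only the 2 groups compared, 8 without Vec 1 and CCND2mut 1, and 0 with CCND2wt summed to 1 sample, and 0 to 4 when 1 library was left out. Members called lower (6) numbered 3 with no filter, 0 with CCND2wt summed, and 2 to 5 with 1 library left out. All genes called there ranged from 615 to 1658 higher (1520) and 404 to 1362 lower (1418) with 1 library left out, with 26 and 13 after summing, 2194 lower with DESeq2 and 2390 higher without Vec 1 and CCND2mut 1. For CCND2mut against Vec, members called lower (5) numbered 3 with no filter, 3 with only the 2 groups and 3 to 5 with 1 library left out. For CCND2mut against CCND2wt, members called higher (17) numbered 9 to 16 with 1 library left out and 5 after summing. Members called lower (5) numbered 3 with no filter, 3 with only the 2 groups, 0 to 5 with 1 library left out and 0 after summing. After summing, all genes called were 803 higher (3633) and 1575 lower (3727). The summed fit has fewer samples, with the lone sample assumed to vary like the other groups. The cause of the other shifts was not tested.

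The groups share only 2 replicate numbers in each pair, too few to show from the data that the numbers pair the libraries. Between Vec and CCND2mut the same-numbered libraries had the highest correlations of their deviations over genes (0.19 and 0.15, against -0.16 to 0.12 for the other pairs), and in the other comparisons they had -0.07 to 0.08. With the replicate number as a block, members called were 0 higher and 4 lower in CCND2wt against Vec, 10 and 3 in CCND2mut against Vec, and 11 and 3 in CCND2mut against CCND2wt, and all genes in the first were 953 higher and 683 lower. The block turned the sign of Ctsb (0.07), Gusb (0.07), Mcoln1 (0.02) and Tfeb (0.15) in CCND2wt against Vec and of Manba (0.04) in CCND2mut against Vec.

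Other changes of sign were in members without a call. In CCND2wt against Vec, Mcoln1 was 0.04 with no filter, 0.02 with CCND2wt summed and -0.07 to 0.12 with 1 library left out. Leaving out 1 library gave -0.54 to 0.33 for Ctsb, -0.1 to 0.02 for Gusb and -0.24 to 0.1 for Tfeb. Without both Vec 1 and CCND2mut 1, Ctsb was 0.33 and Tfeb 0.1. In CCND2mut against Vec, leaving out 1 library gave -0.27 to 0.09 for Acp2, -0.48 to 0.01 for Cd68, -0.18 to 0.08 for Cln3, -0.03 to 0.45 for Ctsa, -0.05 to 0.83 for Ctsb, -0.11 to 1.63 for Lgmn, -0.14 to 0.13 for Manba, -0.28 to 0.09 for Psap and -0.17 to 0.46 for Tfeb. Without both libraries Acp2 was 0.01 and Cln3 0.16. In CCND2mut against CCND2wt the ranges were -0.17 to 0.33 for Ctsa, -0.09 to 0.5 for Ctsd, -0.04 to 0.26 for Manba, -0.28 to 0.13 for Npc2 and -0.04 to 0.55 for Tfeb, and without both libraries Npc2 was 0.12 and Tfeb -0.05.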

Other observations

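Genes for the secretion of lysosome-related organelles, such as the granules of mast cells and neutrophils, included 7 of 14 that rose and 4 that fell in CCND2mut against Vec, and 7 and 2 against CCND2wt. The 4 lower are near the share of all genes called lower against Vec (26.9%), while 24.9% of all genes were called higher. Against CCND2wt, 23.2% of all genes were called higher and 23.8% lower. Rab27a and Rab27b encode related small GTPases that dock such granules at the plasma membrane. Rab27a had 53.5, 19.5 and 24.8 CPM in Vec, 34.7, 35.1 and 33.7 in CCND2wt and 174, 193 and 185 in CCND2mut, and rose against Vec by 2.49 (SE 0.337, adjusted p = 0.000535). Rab27b had 90.8, 117 and 112 CPM in Vec, 102, 114 and 107 in CCND2wt and 5.76, 0.8 and 0.265 in CCND2mut, and fell against Vec by 5.52 (SE 0.824, adjusted p = 0.000869). Rab27b was named after its values were seen and was not refitted with a library left out. In CCND2mut every Rab27a level was thus above, and every Rab27b level below, all other libraries. Lyst, the gene mutated in Chediak-Higashi syndrome, with its giant granules, had 96.3, 69 and 65.9 CPM in Vec and 361, 208 and 218 in CCND2mut, a rise of 1.77 (SE 0.236, adjusted p = 0.000459).

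Of 7 inhibitors of cathepsins, 3 rose (42.9%) and 4 fell (57.1%) in CCND2mut against Vec. There 24.9% of all genes were called higher and 26.9% lower. Cstb, the cytosolic inhibitor cystatin B, had 23.8, 20.9 and 18.4 CPM in Vec, 20.9, 22.5 and 23.6 in CCND2wt and 52.4, 88.9 and 88.9 in CCND2mut, and rose by 1.87 (SE 0.213, adjusted p = 0.000218). Serpina3g, one of a cluster of similar serpin genes whose reads may be shared, had 300, 364 and 449 CPM in Vec, 501, 498 and 514 in CCND2wt and 25.9, 1.13 and 1.13 in CCND2mut, and fell by 5.3 (SE 1.15, adjusted p = 0.0054), or by 8.35 without CCND2mut 1. Of 32 autophagy genes, 6 rose (18.8%) and 12 fell (37.5%) in the same comparison. Together these are 56.2%, near the 51.8% of all genes called there either way. Sqstm1, the autophagy receptor p62, had 1618, 2875 and 2276 CPM in Vec, 734, 1019 and 694 in CCND2wt and 369, 660.2 and 489 in CCND2mut. It fell against Vec in CCND2wt by 1.47 (adjusted p = 0.0102) and in CCND2mut by 2.16 (SE 0.287, adjusted p = 0.000457). The first of these calls was lost without CCND2wt 2 (adjusted p = 0.055) or CCND2wt 4 (0.0563).

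Around Glb1, whose level in CCND2mut 2 stood far above all other libraries, Crtap at 10401 bases had 29.4, 33 and 52.2 CPM in Vec, 69.4, 64.6 and 71.8 in CCND2wt and 54.8, 81.8 and 49.2 in CCND2mut.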
